A study of Populus ussuriensis with 8 samples.

Results

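The data described here are the change in transcript levels between 0.5 h and 1 h after cutting at the base of untreated stem cuttings of the poplar Populus ussuriensis. They come from 4 of the 8 libraries of the study, 2 per time, chosen as the libraries that the sample labels call nontreated. Stem segments were excised from plants grown in vitro and placed on half-strength Murashige and Skoog medium with sucrose and without added hormone, and RNA was taken from the basal ends. The other 4 libraries, also 2 per time, came from cuttings on the same medium with 1 µM methyl jasmonate (MeJA, a volatile form of the hormone jasmonic acid). No genotype or line beyond the species was given, and the labels give conflicting ages for the source plants. The labels do not say whether the replicates are separate cultures. P-values here therefore speak only to the spread among the sequenced libraries, and that spread may be technical. All groups were cut and no uncut control was used here, so the comparison shows a step within the response to cutting and not the response to wounding itself. Harvest, extraction and sequencing batches were not known, and a batch shared by both libraries of 1 time cannot be told apart from time itself.

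Cutting a stem breaks cells and severs the flow of water, sugars and hormones. In plants generally, the cells beside a wound respond with calcium and electrical signals, fast synthesis of jasmonates and induction of early transcription factor genes, before defence and wall genes follow. At the base of poplar cuttings auxin arriving from the shoot later accumulates and adventitious roots form there. The files list genes by Potri identifier only and give no gene names, so none of the genes below is assigned to any of these processes. The tissue could likewise not be checked against cell type markers.

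The authors' tables gave 1 value per transcript, taken here to be FPKM (fragments scaled to transcript length and library size), and the values of a gene's transcripts were summed. Each table listed 65535 transcripts of 36385 genes and ended within chromosome 17, and later identifiers were not analysed here. The 4 untreated libraries summed to between 549538 and 577002 FPKM, and between 22555 and 23236 genes per library reached 1 FPKM. Absolute depth was unknown, but the steps of single reads in low genes placed the other 3 untreated libraries at 0.936 to 0.996 times the depth of 0.5 h replicate 1. The part of depth in the changes below was not tested.

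Between 0.5 h and 1 h the transcriptome of untreated cuttings was widely rearranged. Of 23642 genes with at least 1 FPKM in 2 of the 4 libraries, 11805 (49.9%) differed between the times at an adjusted p of 0.05 (limma on log2(FPKM + 1), Benjamini-Hochberg adjustment over all genes tested). Of these, 3725 genes (15.8%) rose and 8080 (34.2%) fell. Called rises had a median of 0.76 and called falls a median of -0.67 on the log2(FPKM + 1) scale, against a median standard error of 0.14. The groups did not overlap, with both 1 h libraries above both 0.5 h libraries, for 24.8% of the genes tested, and in the other direction for 51.3%. Without untreated 1 h replicate 2, 2633 genes rose and 5330 fell.

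The balance between rises and falls depended on how the libraries were scaled. In the deposited values the change of the median gene was -0.19 (log2), and 31.6% of the called genes rose. After quantile normalization, which makes all libraries share 1 distribution, 4939 genes rose and 5465 fell, so that 47.5% of calls were rises. After centring every library at its own median, 5572 rose and 4712 fell, and rises made up 54.2%. Nearly all of the rises and a part of the falls were called again in the same direction: 3699 of the 3725 rises and 5423 of the 8080 falls after quantile normalization, and 3725 rises and 4712 falls after centring. Centring adds the same amount to every gene of a library and here moved all changes upward, so that it could not remove a rise by its shift. Each scaling forces the libraries towards a common level, so neither tells which balance is right.

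The change with time was larger than the difference between replicates. Across genes, the replicates differed by a median of 0.164 at 0.5 h and 0.142 at 1 h on the log2(FPKM + 1) scale. A 0.5 h library and a 1 h library differed by a median of 0.378 to 0.44. These differences are on the deposited values and include the change of the median gene (-0.19) between the times. The part of that shift was not tested. The Spearman correlation across genes was 0.984 between the 0.5 h replicates and 0.987 between the 1 h replicates. Of the 1 h libraries, replicate 2 stood further from both 0.5 h libraries, at correlations of 0.885 and 0.887, than replicate 1, at 0.907 and 0.908.

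**Figure D1:**
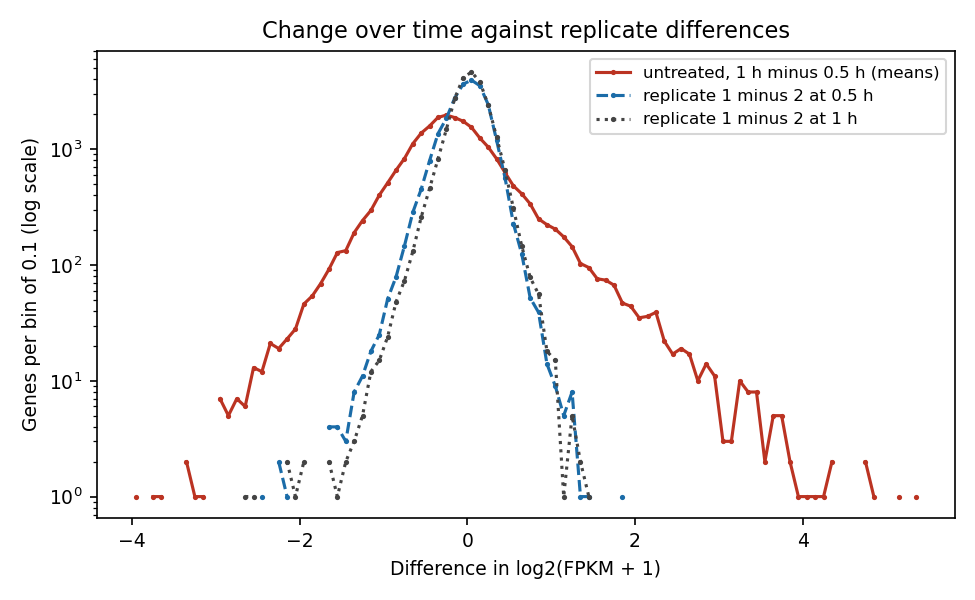
Number of genes per bin of 0.1 (log scale) against the difference in log2(FPKM + 1), for the change from 0.5 h to 1 h in untreated cuttings (means of 2 libraries) and for replicate 1 minus replicate 2 at each time. The curve for time is wider than both replicate curves, peaks below 0 with a median of -0.19, and has a longer tail of rises than of falls.

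Changes of 4-fold and more were more often rises than falls, the reverse of the balance over all calls. A rise of at least 2-fold was called for 1286 genes (5.44%) and a fall of that size for 1785 (7.55%), where folds are on the log2(FPKM + 1) scale and understate the change of low genes. At 4-fold or more the counts were 274 rises (1.16%) and 146 falls (0.618%), and at 8-fold or more 57 rises and 7 falls. At 16-fold or more there were 10 rises and no fall (0). Rises outnumbered falls at 4-fold and above under each scaling, with 329 and 111 after quantile normalization and 373 and 95 after centring. At 2-fold the order depended on the scaling, with 1602 rises and 1248 falls after quantile normalization and 1767 and 1073 after centring. The counts also depended on the pseudocount. With a pseudocount of 0.1, 506 genes rose and 392 fell by 4-fold or more, and 53 rose and 6 fell by 16-fold or more.

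Genes with large rises are described by their levels at each time. The 274 genes that rose at least 4-fold had a median level of 3.51 FPKM at 0.5 h, with quartiles of 1.29 and 11.4, and a median of 31.2 FPKM at 1 h, with quartiles of 14.3 and 77.2. Their summed level was 3142 and 3423 FPKM in the 0.5 h libraries and 18631 and 22157 FPKM in the 1 h libraries. They therefore held 0.572% and 0.593% of all listed FPKM at 0.5 h, and 3.33% and 3.93% at 1 h. These genes were chosen on these libraries, and the values describe them without a test. In the MeJA libraries, which had no part in the size of that change, the same genes held 0.684% and 0.71% at 0.5 h and 3.38% and 3.33% at 1 h.

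The 10 genes that rose 16-fold or more lay on 8 chromosomes. Between 0.5 h and 1 h they went from a range of 0.314 to 5.15 FPKM (median 1.62) in 0.5 h replicate 1 and 0.248 to 5.76 (median 1.69) in replicate 2 to 24.7 to 158 FPKM (median 46.1) in 1 h replicate 1 and 28.6 to 232 (median 66.4) in replicate 2. The lowest level in either 1 h library was therefore above the highest level in either 0.5 h library. The genes were chosen for a large rise in these same libraries, so this is a description only. The same genes spanned 0.248 to 9.27 FPKM over both MeJA libraries of 0.5 h and 24.3 to 182 FPKM in those of 1 h.

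Genes with large falls had to start above the lowest levels, because of how they were chosen. The 146 genes that fell at least 4-fold had a median of 27.9 FPKM at 0.5 h, with quartiles of 13.4 and 65.7, and of 4.47 FPKM at 1 h, with quartiles of 1.92 and 10.4. Their share of all listed FPKM was 1.34% in each 0.5 h library and 0.247% and 0.215% in the 1 h libraries. In the MeJA libraries it was 1.09% and 1.1% at 0.5 h and 0.283% and 0.295% at 1 h. The 7 genes that fell 8-fold or more had medians of 58.7 and 61.9 FPKM in the 0.5 h libraries and of 5.81 and 5.47 FPKM in the 1 h libraries.

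Few genes passed from near silence to clear expression. Under 1 FPKM in both 0.5 h libraries and at 5 FPKM or more in both 1 h libraries were 27 genes, 26 of them called, with a median of 0.443 FPKM at 0.5 h and 9.77 FPKM at 1 h. The highest of them reached a mean of 47.8 FPKM. The reverse pattern was seen for 13 genes, all called, with medians of 7.84 FPKM at 0.5 h and 0.677 FPKM at 1 h. Both sets reached 1 FPKM at only 1 of the times and were apart by the rule, so these calls add no support. Of the 27 genes 22 were listed with a single isoform, and of the 13 genes 12 were, against 50.2% of all genes tested. In the MeJA libraries 16 of the 27 genes and 4 of the 13 met the same limits in FPKM. Both MeJA 1 h values lay above both 0.5 h values for 27 of the 27, against 26.2% of all genes tested, and below them for 13 of the 13, against 49.5%.

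Fewer genes carried the summed gain than the summed loss, but fewer were also called as rises (3725) than as falls (8080). Summed over called genes, rises added 90730 FPKM, equal to 16.1% of the listed FPKM at 0.5 h, and falls changed the sum by -87225 FPKM, equal to 15.5%. The 100 largest gains in FPKM made up 38.8% of all that was gained, and the 100 largest losses made up 22.5% of all that was lost. It took 176 genes to reach 50% of the gain and 591 genes to reach 50% of the loss. These sums follow the scale of the deposited values and carry no test. The part of the number of called genes in this contrast was not tested.

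The 2 largest gains in FPKM were in genes already abundant at 0.5 h, and a choice by change in FPKM favours abundant genes. Potri.004G102500, on chromosome 4, stood at 637.4 and 730.2 FPKM in the 0.5 h libraries and at 2018 and 2326 FPKM in the 1 h libraries. All 1 h values lay above all 0.5 h values, which the choice of this gene required. The mean rose from 684 ± 66 to 2170 ± 220 FPKM (SD, n = 2). On the log2 scale this was 1.67 ± 0.13 (SE, limma adjusted p = 8.1e-06). By mean level among the genes tested it moved from rank 36 to rank 6.

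Potri.008G054700, on chromosome 8, stood at 601.3 and 595.7 FPKM at 0.5 h and at 1958 and 2167 FPKM at 1 h. The times were again apart by the choice of the gene, and the 0.5 h replicates were almost level. The mean rose from 599 ± 4 to 2060 ± 150 FPKM (SD, n = 2). On the log2 scale this was 1.78 ± 0.11 (SE, limma adjusted p = 2.9e-06). Its rank moved from 44 to 7. Both rises were between 1.56 and 1.99 (log2) under all alternatives tried.

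The largest losses in FPKM were smaller in proportion. Potri.004G015300, on chromosome 4, stood at 1979 and 2240 FPKM at 0.5 h and at 1299 and 988.7 FPKM at 1 h. Its mean fell from 2110 ± 180 to 1140 ± 220 FPKM (SD, n = 2). On the log2 scale this was -0.89 ± 0.16 (SE, limma adjusted p = 0.0015). The times were apart by the choice of the gene, and the 1 h replicates stood further apart from each other than the 0.5 h replicates did.

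Potri.009G114700, on chromosome 9, was the fourth most abundant gene at 0.5 h, at 2463 and 2935 FPKM, and stood at 1960 and 1938 FPKM at 1 h. Its mean fell from 2700 ± 330 to 1950 ± 16 FPKM (SD, n = 2). On the log2 scale this was -0.46 ± 0.13 (SE, limma adjusted p = 0.012). This call was lost after median centring (log2 change -0.26, limma adjusted p = 0.13) and without either 1 h library (limma adjusted p = 0.053 without replicate 1 and 0.07 without replicate 2).

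**Figure D2:**
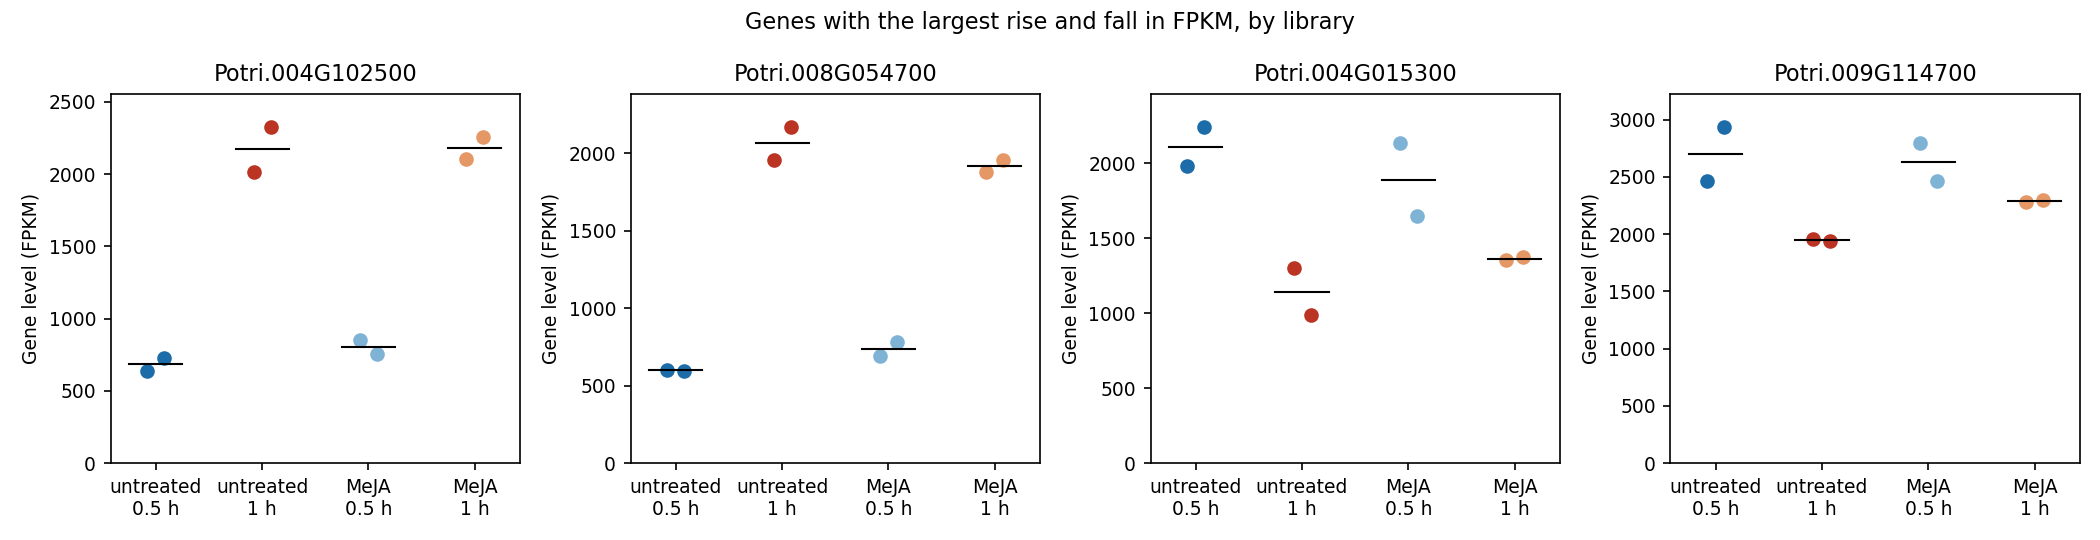
Gene level in FPKM (linear axes from 0) in each of the 8 libraries for the 2 genes with the largest gain and the 2 with the largest loss in FPKM among called genes, with points for libraries and lines for group means. Potri.004G102500 and Potri.008G054700 stand at 1879 FPKM or more in every 1 h library and at 852.8 FPKM or less in every 0.5 h library, and the falls of Potri.004G015300 and Potri.009G114700 are smaller in proportion.

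These 4 genes moved in the same direction in MeJA-treated cuttings. Potri.004G102500 went from 852.8 and 755.9 to 2103 and 2259 FPKM, and Potri.008G054700 from 692.9 and 779.9 to 1879 and 1952 FPKM. Potri.004G015300 went from 2134 and 1646 to 1354 and 1372 FPKM, and Potri.009G114700 from 2798 and 2468 to 2279 and 2302 FPKM. In each case the 2 times did not overlap. Among all genes tested, 26.2% rose without overlap in the MeJA libraries and 49.5% fell without overlap. The change without MeJA minus the change with MeJA was 0.23 ± 0.18, 0.40 ± 0.16, -0.43 ± 0.23 and -0.27 ± 0.18 (log2, SE) in the same order, and none passed the test of the interaction (limma adjusted p = 0.47 to 0.77).

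The set of the most abundant genes turned over within the 0.5 h between the times. Of the 100 genes with the highest mean at 0.5 h, 64 were also among the 100 highest at 1 h, whereas the replicates shared 84 of their 100 highest genes at 0.5 h and 85 at 1 h. Of the 1000 highest genes the times shared 763, and the replicates shared 902 and 939. Among the 100 highest genes at 0.5 h, 16 rose and 32 fell as deposited, close to the 15.8% and 34.2% of all genes tested, and 27 rose and 16 fell after median centring. Among the 100 highest genes at 1 h, 50 rose and 12 fell as deposited. Each of these sets was chosen by its level at 1 of the times compared, so its balance of rises and falls is a description only. The 100 highest genes of a library held 15.2% and 16.3% of the listed FPKM at 0.5 h and 17.7% and 18% at 1 h. The 1000 highest held 41.7% and 43.5% at 0.5 h and 46.1% and 47% at 1 h.

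Expression level was related to how often genes were called. Genes were put in classes by their mean over the 4 untreated libraries. As deposited, 10.3% of the 3157 genes under 2 FPKM rose and 23.8% fell. Among the 5062 genes of 2 to 5 FPKM, 10.7% rose and 34.8% fell, and among the 4957 genes of 5 to 10 FPKM, 13.7% rose and 39% fell. Among the 8295 genes of 10 to 50 FPKM, 19.4% rose and 36.7% fell. Among the 2171 genes of 50 FPKM and over, 26.2% rose and 27.2% fell.

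The share that rose was highest in the class of 50 FPKM and over under each scaling. It was 26.2% as deposited, 25.4% after quantile normalization and 36% after centring. After quantile normalization the class of 10 to 50 FPKM was close to it, at 24.4%. The share that fell had no such order. In the class of 50 FPKM and over it was 27.2%, 28.3% and 16.7%, and in the class of 2 to 5 FPKM 34.8%, 19.7% and 19.9%. Falls thus outnumbered rises in the most abundant class by little as deposited and after quantile normalization, and rises outnumbered falls there after centring. Differences between classes were not tested.

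**Figure D3:**
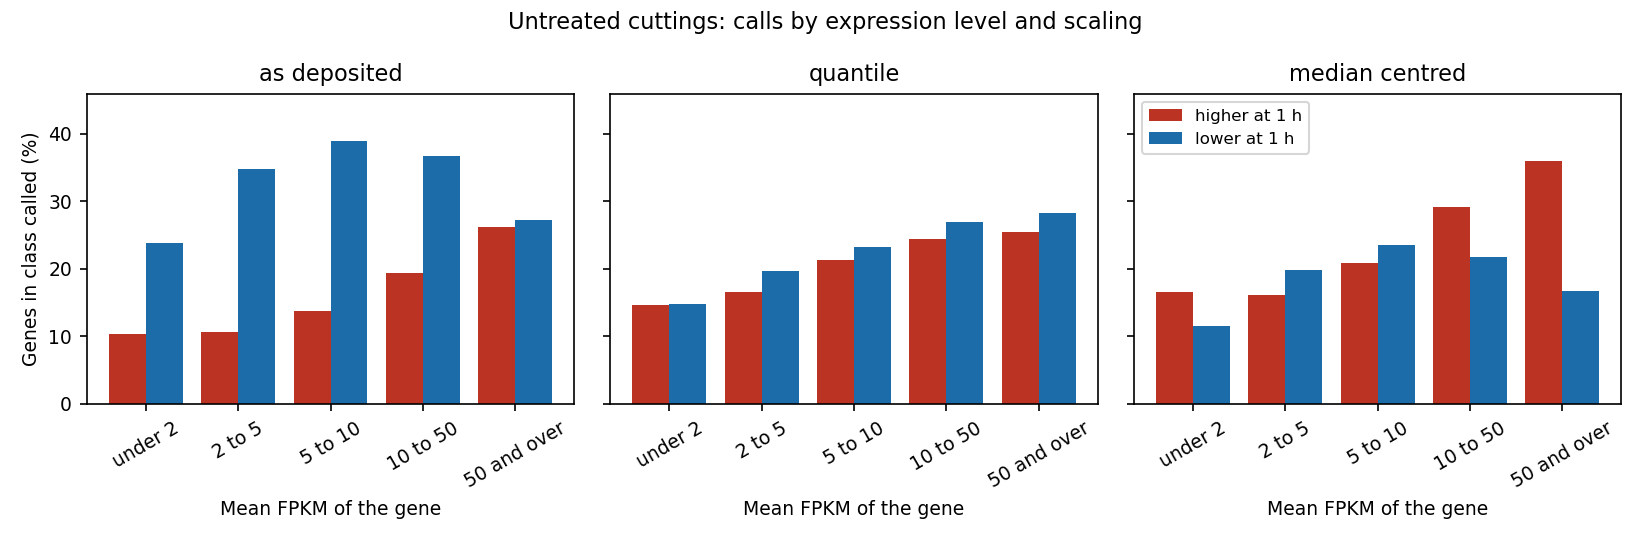
Percent of genes called higher (red) or lower (blue) at 1 h in 5 classes of mean FPKM in untreated cuttings, in panels for the deposited, the quantile-normalized and the median-centred values. As deposited falls exceed rises in every class, with the gap smallest at 50 FPKM and over (26.2% and 27.2%), and after median centring rises exceed falls in that class (36% and 16.7%).

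Genes were also grouped by the number of isoforms listed, and differences between these groups were not tested. Of 11861 single-isoform genes 18.1% rose and 30.1% fell, and of 3740 genes with 4 or more isoforms 12.3% rose and 41.1% fell. After quantile normalization these shares were 23.6% and 20.4% for single-isoform genes and 16.7% and 28.8% for genes with 4 or more, and after centring 25.8% and 18% against 20.3% and 23.8%. Single-isoform genes made up 203 of the 274 rises of at least 4-fold (74.1%) and 81 of the 146 falls of that size (55.5%), against 50.2% of all genes tested. Median levels differed as well, at 5.84 FPKM for single-isoform genes and 13.8 FPKM for those with 4 or more, and the part of level in this contrast was not tested.

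The share of each isoform in its gene was examined next. Shares were tested for 25346 isoforms, drawn from 7852 genes that reached 5 FPKM in all 4 untreated libraries. Of these, 13 isoforms of 11 genes (0.0513%) changed their share of the gene between 0.5 h and 1 h (limma on log2 odds, adjusted p under 0.05), and 7.48% had an unadjusted p under 0.05. A pseudocount of 0.1 in place of 0.5 left 3 isoforms, and leaving out any 1 untreated library left 3 to 5. The genes named next had the smallest p for a gain and for a loss of share and were chosen after their values were seen. Their isoforms passed the limit of a 10% mean share only through the time at which the share was high. Their p-values are therefore given as description. In both named genes, the gene and the isoform moved in opposite directions.

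Potri.006G229300, on chromosome 6 and listed with 12 isoforms, stood at 76.8 and 62.5 FPKM at 0.5 h and at 31.1 and 26.2 FPKM at 1 h. The gene fell by 1.25 on the log2 scale (SE 0.13; limma adjusted p = 4.3e-05). Its isoform 1 stood at 2.46 and 2.24 FPKM at 0.5 h and at 5.33 and 4.44 FPKM at 1 h. Its share of the gene was 3.2% and 3.58% at 0.5 h and 17.2% and 16.9% at 1 h, a change of 2.39 ± 0.1 in log2 odds (SE; limma adjusted p = 0.00014). In the MeJA libraries the share was 3.3% and 3.84% at 0.5 h and 15.4% and 15.9% at 1 h.

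Potri.001G418500, on chromosome 1 and listed with 13 isoforms, stood at 1520 and 1560 FPKM at 0.5 h and at 2650 and 3030 FPKM at 1 h. The gene rose by 0.88 ± 0.11 on the log2 scale (SE; limma adjusted p = 0.00016). Its isoform 13 went from 305 and 297 FPKM to 121 and 132 FPKM. Its share was 20.1% and 19.1% at 0.5 h and 4.56% and 4.36% at 1 h, a change of -2.38 ± 0.08 in log2 odds (SE; limma adjusted p = 5.8e-05). In the MeJA libraries the share was 18.9% and 18.7% at 0.5 h and 4.45% and 4.24% at 1 h. Under the alternatives tried, the change in log2 odds ran from 2.3 to 2.52 for isoform 1 of Potri.006G229300. For isoform 13 of Potri.001G418500 it ran from -2.43 to -2.34. Both isoforms were chosen on these same libraries, so these alternatives add no support. Isoform levels are estimates made by the authors' software, and how reads shared between isoforms were assigned was not resolved.

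**Figure D4:**
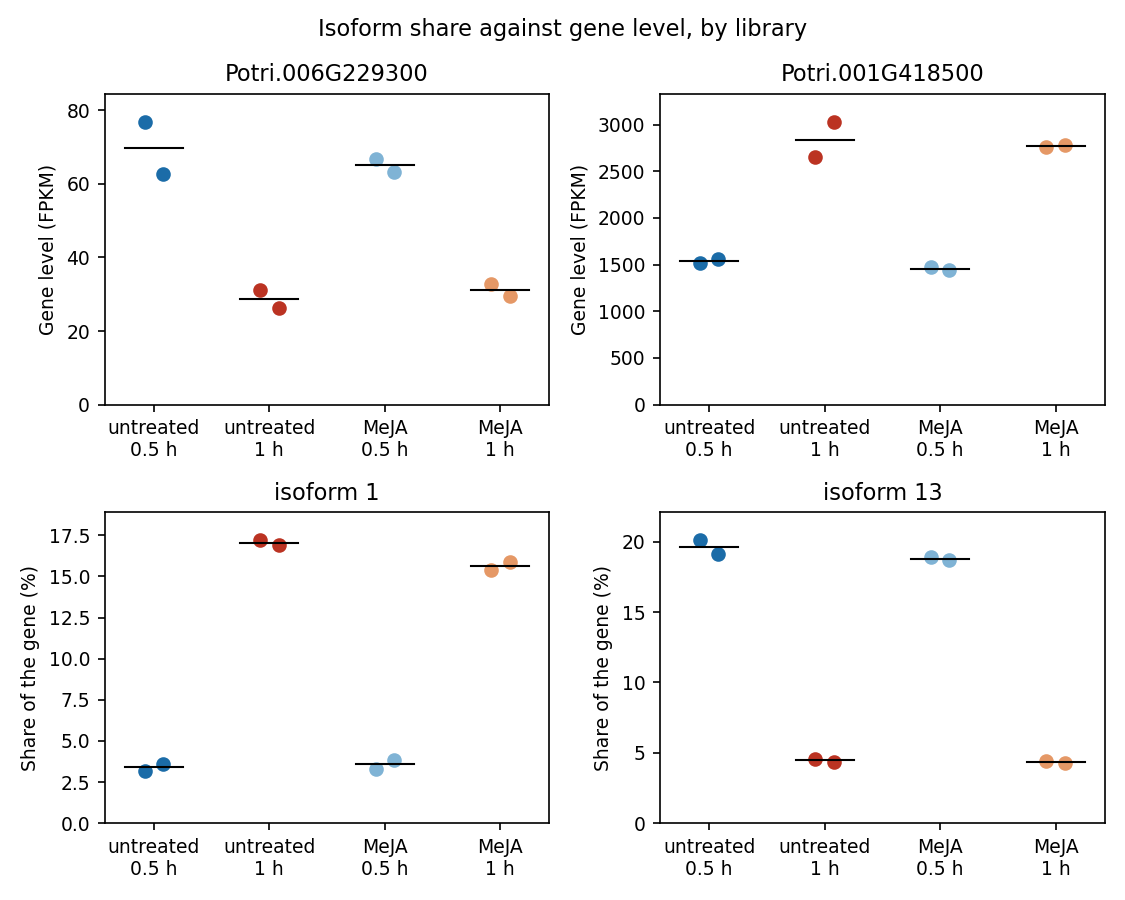
Gene level in FPKM (top) and the share of 1 isoform in percent (bottom) in each of the 8 libraries for Potri.006G229300 (isoform 1) and Potri.001G418500 (isoform 13), with points for libraries and lines for group means, all axes from 0. The share moves against the gene level in both genes, and the 0.5 h and 1 h libraries are apart with and without MeJA.

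Transcripts of 1 gene were rarely called in opposite directions. A test of 45568 single transcripts called 20078 of them (44.1%), 5993 upward and 14085 downward. Of 10379 genes with at least 2 transcripts tested, 2292 had all of them called lower, 951 had all called higher and 9 had transcripts called in opposite directions. These 9 were 0.213% of the 4226 genes with at least 2 transcripts called.

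Whether the change seen without hormone was also present with MeJA could be read in libraries that had no part in the calls. Using the 4 untreated libraries alone, 3502 genes rose (14.8% of those tested) and 7518 fell (31.8%). In the MeJA libraries, 3239 of these 3502 genes (92.5%) had both 1 h values above both 0.5 h values, against 26.2% of all genes tested, and 20 (0.571%) had the reverse. Of the 7518 genes that fell, 6824 (90.8%) had both MeJA 1 h values below both 0.5 h values, against 49.5% of all genes tested, and 36 (0.479%) had the reverse. The median change of the rising genes was 0.81 without and 0.72 with MeJA, and that of the falling genes -0.7 and -0.56. The genes were chosen on the untreated libraries, so these medians do not compare the size of the response between treatments.

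**Figure D5:**
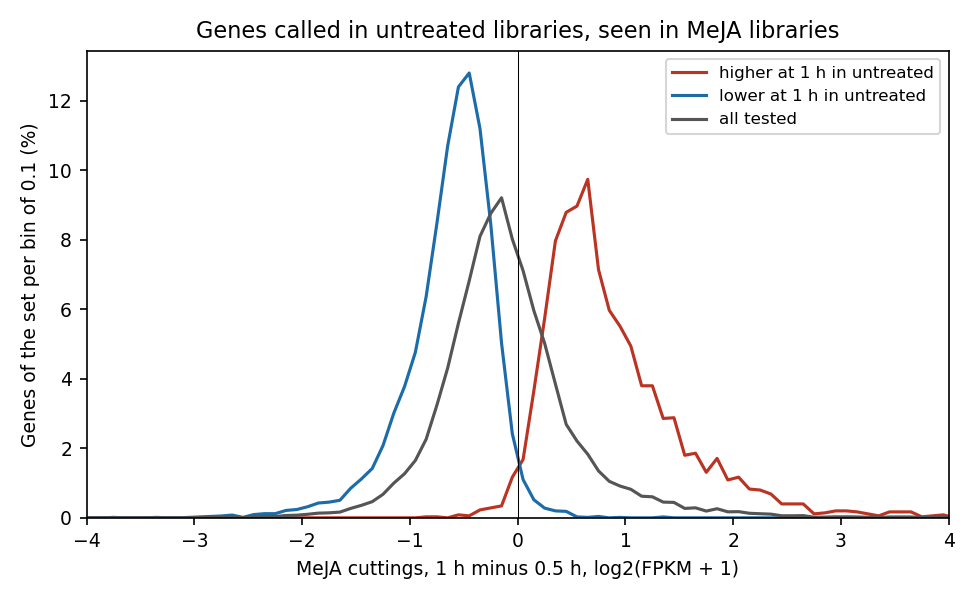
Distribution of the change from 0.5 h to 1 h in MeJA-treated cuttings, in log2(FPKM + 1), for genes that rose (red) or fell (blue) in the 4 untreated libraries alone and for all genes tested (grey). Vertical values are the percent of each set per bin of 0.1. The set that rose has a median of 0.72, the set that fell a median of -0.56 and all genes a median of -0.15.

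A test of the difference itself found no gene (0 of 23642, 0%) whose change between 0.5 h and 1 h was called different with and without MeJA (limma, adjusted p of 0.05). An unadjusted p under 0.05 was found for 2230 genes (9.43%). With 2 libraries per group this does not show that the responses were alike. No gene can therefore be called particular to the untreated cuttings from these libraries. Leaving out 1 library at a time gave 0 or 1 called gene, and the single call appeared when replicate 1 of untreated 0.5 h or replicate 1 of MeJA 0.5 h was absent.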

How the data were processed

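RNA of basal ends of stem cuttings was sequenced in 8 libraries, 2 in each of 4 groups, with groups and replicate numbers taken from the labels. The authors deposited 1 value per transcript and library, which was taken to be FPKM, that is, scaled by them to transcript length and library size before deposit. The file headers and the labels name no unit, and the reading was made from the values alone, which are neither whole nor logarithmic. The submitters' processing notes name HISAT2 (2.1.0) and, also, Bowtie2 (2.2.3), with no roles. For the quantification tool, build, annotation and strand, nothing is given in the sources used here.

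Transcript values were summed to genes by dropping the isoform number. Genes with at least 1 FPKM in 2 of the 4 untreated libraries were kept and transformed as log2(FPKM + 1). The means of the 4 groups were fitted over all 8 libraries with limma (version 3.58.1, in R 4.3.3), using trended variances and robust moderation. Benjamini-Hochberg adjusted p-values were called at 0.05. Isoform shares were tested as log2 odds with a pseudocount of 0.5, for isoforms with a mean share of 10% to 90%. The procedure was tested on simulated data. Named genes are the 2 gains and 2 losses largest in FPKM among called genes whose times did not overlap. Gene lists defined by description and the check of cell type markers were not run, because the identifiers are not paired with names here. The members, lists and tests were chosen with earlier results of these data known. Reads shared with paralogs, overlapping or antisense genes were not resolved.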

Additional observations from a re-analysis of the deposited data

How the results depend on the processing

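The counts of genes that changed between 0.5 h and 1 h stayed within 1.5 times of those reported under other pseudocounts, filters, variance priors and the fit of the 4 untreated libraries alone. Median centring gave 4712 falls, with 54.2% of calls rising, and quantile normalization gave 47.5% rising. Testing transcripts gave 20078 calls, 5993 higher and 14085 lower, and testing against an absolute log2 change of 1 gave 859, with 466 higher, 393 lower and 54.2% rising. In the last 2 settings the count follows from their construction. Leaving out each untreated library in turn gave 7963 to 9954 calls, 2633 to 3279 higher and 5330 to 6852 lower, with 31.2% to 33.1% rising. A lone library is then assumed to vary like the other groups. The interaction gave 0 to 1 calls when each library was left out and 0 under the other settings, and it could not be fitted in the untreated libraries alone. Isoform shares gave 3 calls with a pseudocount of 0.1, 7 in the untreated libraries alone and 3 to 5 without 1 library; the cause was not tested.

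The groups share replicate numbers. Correlations of same-numbered deviations were 0.033 between the untreated groups and -0.12 between the MeJA groups. Such correlations cannot show whether the numbers mark pairs. With the replicate block, 11462 genes changed, the interaction gave 0 calls and isoform shares gave 7. A block with the MeJA 1 h replicates swapped, chosen after seeing the data, gave 0 for the interaction. The alternatives for gene lists were not run. Limits set by depth were not measured, since absolute depth is unknown.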

Other observations

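Genes with consecutive identifiers, which lie next to each other on a chromosome, more often changed in the same direction than all such pairs did. Among 16198 pairs of consecutive tested identifiers, the second gene rose in 26.9% of the pairs whose first gene rose, against 15.9% of all pairs. The second gene fell in 41.1% of the pairs whose first gene fell, against 33.9% of all pairs. After quantile normalization these shares were 32% against 20.9% for rises and 30.2% against 23% for falls, and after median centring 34.5% against 23.7% and 26.1% against 19.7%.

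The contrast was wider for large rises. Where the first gene rose at least 4-fold, the second did so in 21 of 200 pairs (10.5%), against 1.19% of all pairs, and in 12.2% against 1.41% after quantile normalization. Large falls were too few for this comparison. Where the first gene fell at least 4-fold, the second did so in 3 of 98 pairs (3.06%) as deposited, against 0.574% of all pairs. It did so in 0 of 71 pairs after quantile normalization, against 0.42% of all pairs. After centring it did so in 0 of 59 pairs, against 0.364%. At 2-fold the shares for falls were 13.4% against 7.48% as deposited, 11.1% against 5.12% after quantile normalization and 10.9% against 4.39% after centring. As deposited, the longest unbroken run of rising identifiers held 6 genes and that of falling identifiers 9. The run length to be had from the share of genes called alone was not computed. Neighbouring genes in plants are often tandem copies that can share reads, and the part of shared reads in these pairs was not tested. No test was made of the neighbour pattern, which was seen after the data were examined.

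Calls were spread over all 17 chromosome numbers in the list. The share of genes that rose ran from 13.7% on chromosome 13 to 19% on chromosome 11, and the share that fell from 30.1% on chromosome 12 to 35.8% on chromosomes 7 and 16. After median centring the share that rose was again lowest on chromosome 13 (19.4%) and highest on chromosome 11 (26.1%). The order of the shares that fell was not kept, with chromosome 3 (16.9%) then lowest and chromosome 16 (21.6%) highest.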
